A study of Homo sapiens with 9 samples.

Results

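The 10 genes of the insulin-like growth factor (IGF) system followed here, across TC71 cells recovered from 2 metastatic sites and the primary tumour, were IGF1R, IGF2R, INSR, IGF1, IGF2, IRS1, IRS2, IGFBP2, IGFBP3 and IGFBP4. They were chosen by symbol, and all 10 had a row among the 34830 rows of the table that name a gene. TC71 is an established human Ewing sarcoma cell line. In each group 100 cells in Matrigel had been injected under the skin of the flank of NSG mice, an immunodeficient strain that lacks lymphocytes and natural killer cells and keeps its own myeloid cells. The tumours were left to reach 1.5 cm, and tumour cells were then sorted by flow cytometry. The groups were bone marrow metastases (4 libraries), lung metastases (4 libraries) and the primary tumour (1 library), all untreated as far as the labels say. Neither the age of the mice nor which libraries shared a mouse is known from the labels, and the p-values therefore reflect the spread among libraries alone, which may be partly technical.

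The ligands IGF1 and IGF2 bind the receptor tyrosine kinase IGF1R, which signals through the adaptors IRS1 and IRS2 to the PI3K-AKT and RAS-MAPK pathways. The insulin receptor INSR is the closest relative of IGF1R and also binds IGF2 in 1 of its splice forms, whereas IGF2R has no kinase and carries IGF2 to lysosomes. IGF binding proteins hold most secreted ligand and release it when they are cleaved. Ewing sarcoma is known for its dependence on IGF1R, and IGFBP3 is known as a gene that the EWSR1-FLI1 fusion protein represses.

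The libraries held 11550000 to 17910000 estimated counts, and the 10 genes together took 2442 to 4163 of them. Bone marrow libraries were deeper than lung libraries, at 15483800 ± 1681590 against 12663800 ± 774632 counts (SD, n = 4 each; exact two-sided permutation p = 0.0286, the smallest that 4 against 4 libraries can give; adjusted p = 0.0381 over 4 library measures). Reads assigned to human made up 78.6 ± 0.688% of bone marrow libraries and 75.3 ± 1.97% of lung libraries (exact permutation p = 0.0286, adjusted p = 0.0381), and reads assigned to mouse 7.52 ± 0.191% and 7.36 ± 0.496% (exact permutation p = 0.543, adjusted p = 0.543). Reads counted as mitochondrial rRNA made up 0.158 ± 0.0560% in bone marrow, 0.432 ± 0.0656% in lung and 0.0570% in the primary library, with no overlap between the sites (exact permutation p = 0.0286, adjusted p = 0.0381). Mouse reads and mitochondrial rRNA were added to the library measures first planned. Mitochondrial rRNA was the only deposited counting category tested, and the adjustment does not cover the others. The part of depth, human reads and mitochondrial rRNA in the differences between sites given below was not tested. All 10 Ewing sarcoma markers looked for had counts, and their CPM summed to 1872 to 2419 in bone marrow, 1902 to 2414 in lung libraries and 2661 in the primary library. Among them STEAP1 and CD99 led, while FLI1, the 3′ partner gene of the fusion, had no more than 11.2 estimated counts in any library. How reads of the fusion transcript were assigned between FLI1 and EWSR1 cannot be told from the table, so this value is no measure of the fusion. Leukocyte markers summed to 1.04 to 5.70 CPM in bone marrow, 2.54 to 35.5 CPM in lung libraries and 4.07 CPM in the primary library, with 5 of 8 (CD52, CD74, TYROBP, CSF1R and SPI1) at 10 counts or fewer in every library. Stromal markers summed to 98.3 to 350 CPM, 151 to 397 CPM and 281 CPM in bone marrow, lung and primary libraries, with DCN and LUM supplying 96.3% of the level and BGLAP at 0. Endothelial markers came to 23.6 to 27.9, 25.3 to 30.1 and 23.5 CPM, of which CDH5 and PECAM1 gave 98.6%, with VWF, KDR and TEK at 10 counts or fewer. Red cell markers ranged over 15.3 to 98.7, 0.363 to 159 and 6.14 CPM, with ALAS2 at 0. Lung epithelial markers came to 21.3 to 87.6, 14.8 to 128 and 39.4 CPM, of which EPCAM and NKX2-1 gave 96.2%; SCGB1A1 was at 0, and SFTPA1, SFTPA2 and SFTPC had 10 counts or fewer. Of all these markers edgeR and limma voom called 0 in either comparison, and DESeq2 called EWSR1 and COL1A2 (higher) and CD68 (lower) in bone marrow against lung. These were 1 each of the 9 Ewing sarcoma, 7 stromal and 3 leukocyte markers tested, with 0 called in the other marker lists. In that comparison DESeq2 called 3.38% of the genes for which it gave an adjusted p.

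Levels below are estimated counts scaled to a common library size by TMM (CPM, the counts divided by the scaled library total and set to a fixed total for all libraries). Tests are edgeR quasi-likelihood tests with p-values adjusted by Benjamini-Hochberg over all 17042 genes tested, and a gene is called at an adjusted p below 0.05. In bone marrow against lung, the question being how metastatic cells of 1 line differ between sites, 0 of the 10 genes were called, where 0.00587% of all genes were. One of the 10, IRS1, had an unadjusted p below 0.05 and was lower in bone marrow, where 3.88% of all genes were lower at that level. DESeq2 called 0 of the 8 genes for which it gave an adjusted p (3.38% of the 13847 genes given one). With quality weights, limma voom called 0 of 10 (0.0352% of all genes). In metastases against the primary library, 0 of 10 genes were called by edgeR (0% of all genes), and 0 had an unadjusted p below 0.05 (4.79% of all genes). There DESeq2 called 0 of 8 (0.716% of the 13553 genes given an adjusted p), and limma voom called 0 of 10 (0.282% of all genes). The biological coefficient of variation was 0.925, and the intervals below show which differences these libraries leave possible. The primary tumour has 1 library, whose tests assume that it varies as the metastases do, with no replicate check.

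**Figure D1:**
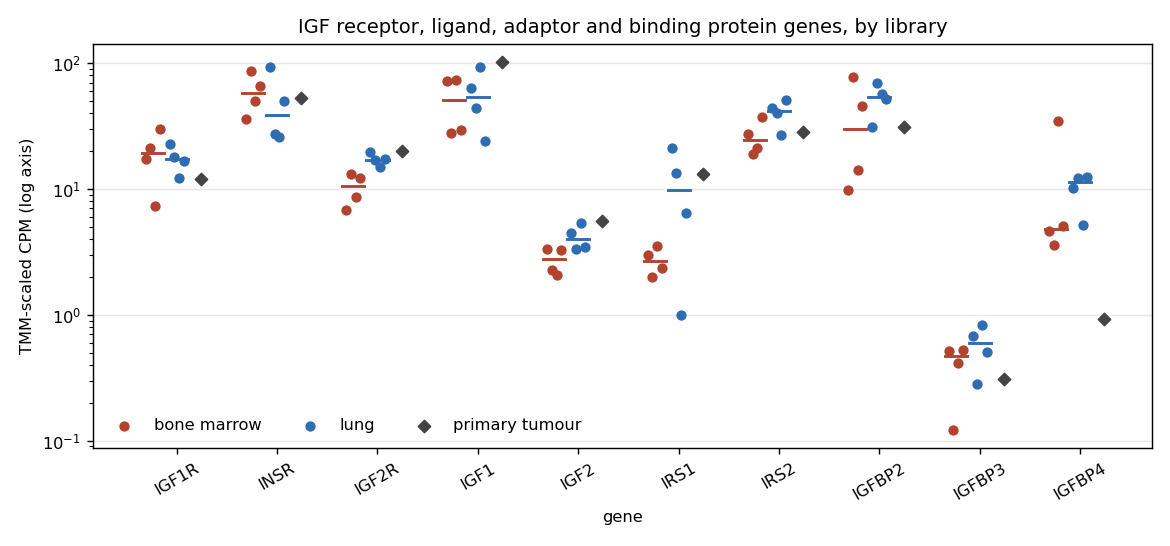
TMM-scaled CPM (log axis) of each gene in every library, with bone marrow, lung and primary tumour from left to right. Circles are single metastasis libraries, short lines are medians of 4 libraries, and the diamond is the single primary library. Only IGF2R has bone marrow libraries that all lie below the lung libraries, and IGFBP4 is the gene whose primary library (0.921 CPM) lies below all 8 metastasis libraries.

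Among the receptors, IGF1R (chromosome 15, 98648539 to 98964530, hg38, GENCODE release 29) was detected in all 9 libraries with 105 to 462 estimated counts. It was at 17.3, 21.0, 7.30 and 30.1 CPM in bone marrow replicates 1 to 4, at 22.7, 18.0, 12.3 and 16.6 CPM in lung replicates 1 to 4, and at 11.9 CPM in the primary library. The bone marrow libraries thus enclosed every lung library, and the primary library lay within the metastasis range. The bone marrow mean was 18.9 ± 9.44 CPM and the lung mean 17.4 ± 4.32 CPM (SD, n = 4 each). Its log2 fold change was 0.12 ± 0.50 (SE), with a 95% interval of -1.02 to 1.26 and an edgeR adjusted p of 0.957, so neither a doubling nor a halving was outside the interval. Its sign turned without bone marrow replicate 4 (-0.19) and without lung replicate 3 (-0.0048). Against the primary library the log2 fold change of the metastases was 0.61 ± 0.80 (95% interval -1.20 to 2.42, edgeR adjusted p = 0.99985).

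The 3 genes most like IGF1R were found over the 9 libraries, by the root mean square difference of centred log2(CPM + 1) among 9643 genes whose average log2 CPM was 2 or more. They were RABIF, MVB12A and CDKN1B, at 0.30, 0.31 and 0.33, where IGF1R itself deviated from its own mean by 0.53. MVB12A was at 2.02 CPM in bone marrow replicate 3 and 15.6 CPM in bone marrow replicate 4, the libraries in which IGF1R was lowest and highest. RABIF was highest in bone marrow replicate 1 (116.7 CPM) and CDKN1B in bone marrow replicate 2 (18.1 CPM). All 3 were picked by these same values, so their likeness to IGF1R follows from the choice and is no separate result.

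INSR (chromosome 19, 7112255 to 7294034) was at 36.1, 87.2, 50.2 and 66.1 CPM in bone marrow, at 93.1, 27.5, 25.9 and 50.04 CPM in lung libraries and at 52.5 CPM in the primary library. The highest level of all was in lung replicate 1, and the sites overlapped over most of their range. The fitted log2 fold change of bone marrow over lung was 0.29 ± 0.49 (95% interval -0.81 to 1.38, edgeR adjusted p = 0.881), and it was 0.81 without lung replicate 1 and 0.05 without bone marrow replicate 2. For metastases over primary it was 0.05 ± 0.73 (adjusted p = 0.99985), with the other sign without lung replicate 1 (-0.26) and bone marrow replicate 2 (-0.071), and with library size alone in place of TMM (-0.041). Per kilobase of coding transcript, INSR was above IGF1R in all 9 libraries. The log2 difference of IGF1R minus INSR, on that scale, was -1.87, -2.87, -3.60 and -1.95 in bone marrow, -2.85, -1.42, -1.89 and -2.41 in lung and -2.96 in the primary library. These values are a description and were not tested.

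IGF2R (chromosome 6, 159969099 to 160113507), which removes IGF2 from the cell surface and carries enzymes tagged with mannose 6-phosphate to lysosomes, was the only gene of the 10 whose sites did not overlap. It was at 6.81, 13.2, 8.62 and 12.3 CPM in bone marrow, against 19.7, 16.8, 14.8 and 17.1 CPM in lung, and at 20.1 CPM in the primary library. Every bone marrow library was below every lung library, and the primary library was above all 8. Bone marrow averaged 10.2 ± 3.04 CPM and lung 17.1 ± 1.99 CPM (SD, n = 4 each). Of all genes tested, 3.06% were lower in bone marrow with no overlap, and 2.82% were higher, against 1 and 0 of these 10. The difference did not pass the test, with a log2 fold change of -0.74 ± 0.42 (95% interval -1.69 to 0.21, unadjusted p = 0.111, edgeR adjusted p = 0.532; DESeq2 adjusted p = 0.270). Over single libraries left out it ran from -0.89 to -0.57. For metastases over primary the log2 fold change was -0.60 ± 0.59 (edgeR adjusted p = 0.99985).

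The promoter of IGF2R is shown because its level separated the sites and because its sequence holds a repeated element, both noticed after the data and the sequence were seen. The window, from RefSeq (GRCh38.p14, plus strand, chr6:159968832-159969131), runs from 250 bases before to 50 bases after the annotated start. Capitals mark CACGTG, which reads the same on both strands and is the E-box core bound by many basic helix-loop-helix factors, among them those of the MYC and TFEB families.
IGF2R promoter: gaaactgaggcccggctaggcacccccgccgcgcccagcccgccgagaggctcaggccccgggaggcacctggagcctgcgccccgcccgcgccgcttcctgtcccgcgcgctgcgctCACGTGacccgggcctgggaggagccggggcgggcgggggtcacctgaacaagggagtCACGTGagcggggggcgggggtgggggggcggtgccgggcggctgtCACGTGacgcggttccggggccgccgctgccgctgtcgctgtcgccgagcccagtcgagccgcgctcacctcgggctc
The window holds 3 copies. Of 35116 promoter windows of the same length, 7.26% hold at least 1 copy and 0.094% hold 3. The table holds 12 windows for 9 of the 10 genes, all but IGF2, and the only other copy in them was 1 in the IRS1 window. These are letters in a window, and no binding was measured.

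Of the ligands, IGF1 (chromosome 12, 102395874 to 102481744) was well detected, with 332 to 1322 estimated counts, and IGF2 was not, with 30.05 to 72.5. IGF1 was at 72.0, 28.0, 73.7 and 29.4 CPM in bone marrow, at 63.5, 44.2, 93.1 and 24.1 CPM in lung libraries and at 101 CPM in the primary library. Libraries of each site differed from each other more than the site means did, 2.63-fold from lowest to highest in bone marrow and 3.86-fold in lung. The primary library was above all 8. The means were 50.8 ± 25.5 CPM in bone marrow libraries and 56.2 ± 29.4 CPM in lung libraries (SD, n = 4 each).

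The log2 fold change of IGF1 for bone marrow over lung was -0.15 ± 0.51 (95% interval -1.29 to 1.00, edgeR adjusted p = 0.949), and its sign turned without lung replicate 3 (0.22), bone marrow replicate 2 (0.054) and bone marrow replicate 4 (0.043). For metastases over primary it was -0.92 ± 0.70 (95% interval -2.51 to 0.66, edgeR adjusted p = 0.99985). A noncoding gene on the opposite strand, HELLPAR, overlaps 6.72 kb at the 3′ end of IGF1 and was at 107 to 264 CPM over the 9 libraries. Whether counting used strand is not stated in these sources, so reads of IGF1 and HELLPAR in that stretch may not have been told apart. HELLPAR was highest in bone marrow replicate 1, at 264 CPM, against 120 CPM in bone marrow replicate 3, the other bone marrow library with high IGF1.

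IGF2 (chromosome 11, 2129112 to 2149603) was at 3.33, 2.26, 2.08 and 3.26 CPM in bone marrow, at 4.50, 3.31, 5.38 and 3.49 CPM in lung libraries and at 5.52 CPM in the primary library. The bone marrow maximum just reached into the lung range, and the primary library was above all 8. Its log2 fold change for bone marrow over lung was -0.61 ± 0.52 (95% interval -1.78 to 0.57, edgeR adjusted p = 0.707), and for metastases over primary -0.71 ± 0.73 (adjusted p = 0.99985). The readthrough gene INS-IGF2, which shares exons with IGF2, was listed at 0 in every library, and insulin (INS) had 4 counts in the primary library and 0 in all others. IGF1, IGF2 and IGF2R are the 3 genes of the 10 with the primary library above all 8 metastasis libraries, where 10.1% of all genes were so placed. For IGF2 and IGF2R the next highest library came close, at 5.38 against 5.52 CPM and at 19.7 against 20.1 CPM.

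Between genes, levels were compared per kilobase, using the median length of the coding transcripts of each gene in GENCODE release 29. On this scale IGF1 averaged 78.8 CPM per kb over the 9 libraries, followed by IGFBP2 (37.7), INSR (7.94), IGFBP4 (4.50), IRS2 (4.02), IGF1R (1.45), IGF2R (1.24), IGF2 (1.20), IRS1 (0.752) and IGFBP3 (0.205). With the longest coding transcript in place of the median, IGFBP2 (29.9 CPM per kb) came before IGF1 (7.99), since the coding transcripts of IGF1 have a median of 0.746 kb and reach 7.36 kb, and IRS1 (0.752) came before IGF2 (0.659). Most neighbours in this order do not differ beyond the spread between libraries. IGFBP4, IRS2 and IGF1R spanned 0.418 to 15.8, 2.31 to 6.27 and 0.607 to 2.51 CPM per kb, and IGF2R, IGF2 and IRS1 spanned 0.589 to 1.74, 0.682 to 1.81 and 0.102 to 2.17. The highest level of IGFBP3, 0.366 CPM per kb, stayed below the lowest of IGF1R, IGF2R and IGF2. IGF1 exceeded IGF2 in all 9 libraries on the per-kilobase scale, by a log2 difference of 5.21 to 7.18 in bone marrow, 4.82 to 6.15 in lung and 6.23 in the primary library. With the longest transcript the difference was 2.78 to 4.75 in bone marrow, 2.39 to 3.71 in lung and 3.80 in the primary library.

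The promoters of IGF1 and IGFBP3, the ligand at the top and the binding protein at the bottom of that order, are shown with capitals at GGAA on either strand, which reads TTCC on the minus strand and is the core of sites that ETS proteins such as FLI1 bind. Both are RefSeq windows of GRCh38.p14 on the minus strand, at chr12:102481698-102481997 for the upstream start of IGF1 and chr7:45921223-45921522 for IGFBP3.
IGF1 promoter: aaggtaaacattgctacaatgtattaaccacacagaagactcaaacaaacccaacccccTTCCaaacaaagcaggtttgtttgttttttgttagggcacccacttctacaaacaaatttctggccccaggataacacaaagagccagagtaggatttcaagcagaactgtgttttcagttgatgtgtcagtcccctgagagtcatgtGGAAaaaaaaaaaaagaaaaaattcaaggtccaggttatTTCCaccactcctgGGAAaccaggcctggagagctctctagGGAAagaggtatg
IGFBP3 promoter: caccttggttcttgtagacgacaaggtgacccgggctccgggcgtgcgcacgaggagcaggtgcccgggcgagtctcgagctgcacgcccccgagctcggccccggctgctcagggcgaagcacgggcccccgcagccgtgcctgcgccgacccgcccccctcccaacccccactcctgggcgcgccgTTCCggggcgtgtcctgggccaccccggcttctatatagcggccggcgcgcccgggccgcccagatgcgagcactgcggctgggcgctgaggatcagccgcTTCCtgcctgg
The IGF1 window holds 5 copies, as many as or fewer than 28.6% of all windows, and the IGFBP3 window holds 2, as many as or fewer than 83.8%. The second annotated start of IGF1 holds 3. Binding of the fusion was not measured here.

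Of the adaptors, IRS1 (chromosome 2, 226731317 to 226799759) had the smallest p of the 10 genes. It was at 2.96, 2.01, 3.54 and 2.35 CPM in bone marrow, at 21.0, 13.3, 0.994 and 6.39 CPM in lung libraries and at 13.1 CPM in the primary library. Lung replicates 1, 2 and 4 and the primary library were above all bone marrow libraries, while lung replicate 3 was below them all. Bone marrow libraries were tightly grouped, with a 1.76-fold range, and lung libraries spanned 21.2-fold. Means were 2.72 ± 0.677 CPM in bone marrow libraries and 10.4 ± 8.68 CPM in lung libraries (SD, n = 4 each).

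The log2 fold change of IRS1 for bone marrow over lung was -1.94 ± 0.83 (95% interval -3.82 to -0.06), with an unadjusted p of 0.0444, an edgeR adjusted p of 0.486, a DESeq2 adjusted p of 0.186 and a limma voom adjusted p of 0.539. It did not pass the test with any library left out, when it ran from -2.31 without lung replicate 3 to -1.33 without lung replicate 1 (edgeR adjusted p 0.467 to 0.638). For metastases over primary it was -1.30 ± 1.07 (adjusted p = 0.99985). The macrophage marker CD68 was at 0.444, 0, 0 and 0 CPM in bone marrow, at 20.9, 7.82, 0.994 and 2.25 CPM in lung, and at 2.30 CPM in the primary library. Its lung libraries had the same order as for IRS1. That order was not particular to CD68. The protease genes PAPPA (19.3, 17.7, 0.911 and 14.3 CPM) and MMP2 (6.02, 2.46, 0 and 0.0726 CPM) had it too, while PTPRC, given next, did not. The leukocyte marker PTPRC was at 3.63, 1.40, 2.78 and 0.456 CPM in bone marrow libraries, against 14.3, 2.18, 1.32 and 0.218 CPM in lung, and 5 of the 8 leukocyte markers were at or near 0 as given above. LYZ, also on the leukocyte list, went the other way between the sites. It was at 0.888, 1.53, 1.46 and 0.587 CPM in bone marrow and 0, 0.563, 0 and 0 CPM in lung, with no overlap. In the primary library LYZ was at 0.307 CPM, and no library had more than 25.1 estimated counts of it. CD68 was called lower in bone marrow by DESeq2 and not by edgeR or limma voom. The counts are for human genes, and leukocytes of the host are mouse cells. Whether the CD68, PTPRC and LYZ counts came from TC71 cells or from mouse reads assigned to human genes was not tested. Any relation of these markers to the IRS1 level was not tested either. In bulk samples, fewer cells of a type and less RNA per cell cannot be told apart.

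IRS2 (chromosome 13, 109752698 to 109786568) varied less. It was at 27.2, 18.8, 21.3 and 37.0 CPM in bone marrow, at 43.9, 40.1, 26.8 and 51.0 CPM in lung libraries and at 28.3 CPM in the primary library. Lung replicates 1, 2 and 4 were above all bone marrow libraries, and lung replicate 3 was within their range. The log2 fold change for bone marrow over lung was -0.63 ± 0.37 (95% interval -1.47 to 0.21, unadjusted p = 0.124, edgeR adjusted p = 0.547), and for metastases over primary 0.20 ± 0.57 (adjusted p = 0.99985). Per kilobase, IRS2 was above IRS1 in every library, by a log2 difference of 2.84 to 4.23 in bone marrow, 1.32 to 5.01 in lung and 1.36 in the primary library.

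IGFBP2 was the most abundant of the 3 binding proteins per kilobase in 8 of 9 libraries. IGFBP2 (chromosome 2, 216632828 to 216664436), a binding protein common in fetal and neural tissue, was at 9.84, 77.9, 14.2 and 45.9 CPM in bone marrow, at 30.8, 70.1, 56.6 and 51.7 CPM in lung libraries and at 30.9 CPM in the primary library. Bone marrow libraries spanned 7.91-fold and enclosed all lung libraries, which spanned 2.27-fold. Its log2 fold change for bone marrow over lung was -0.50 ± 0.64 (95% interval -1.95 to 0.95, edgeR adjusted p = 0.8291), and it ran from -1.16 without bone marrow replicate 2 to -0.17 without bone marrow replicate 1. For metastases over primary it was 0.51 ± 1.00 (adjusted p = 0.99985).

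In bone marrow, replicates 1 and 3 had the higher IGF1 and the lower IGFBP2, and replicates 2 and 4 the reverse. Per kilobase, the log2 difference of IGF1 minus IGFBP2 was 3.49, -0.86, 2.99 and -0.03 in bone marrow replicates 1 to 4, 1.66, -0.05, 1.33 and -0.49 in lung replicates 1 to 4, and 2.33 in the primary library. These values use the median transcript length, and which gene is higher depends on that choice. With the longest transcript they were 0.52, -3.83, 0.02 and -3.00 in bone marrow, -1.31, -3.02, -1.64 and -3.46 in lung and -0.64 in the primary library, a shift that is the same for every library. In lung the order was less regular, since replicate 3 had the highest IGF1 and also the second highest IGFBP2. This pattern was noticed in the values and was not tested.

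**Figure D2:**
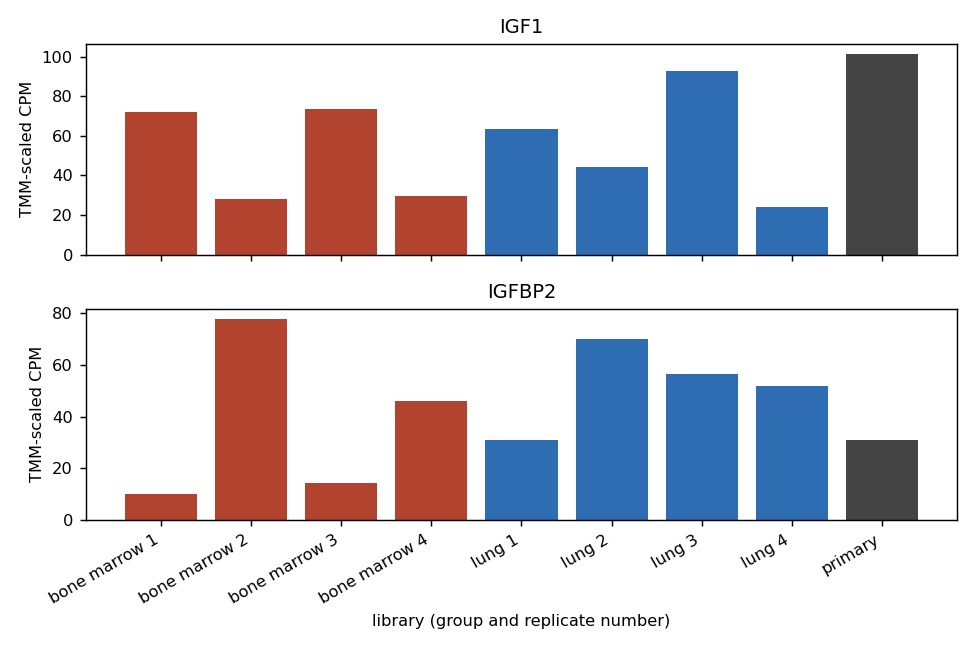
TMM-scaled CPM of the ligand gene IGF1 (top) and the binding protein gene IGFBP2 (bottom) in each library, 1 bar per library, with bone marrow, lung and primary from left to right. Bone marrow replicates 1 and 3 have 72.0 and 73.7 CPM of IGF1 with 9.84 and 14.2 CPM of IGFBP2, while replicates 2 and 4 have 28.0 and 29.4 CPM of IGF1 with 77.9 and 45.9 CPM of IGFBP2.

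IGFBP4 (chromosome 17, 40443461 to 40457731), a binding protein that the protease pappalysin (PAPPA) cleaves to free its ligand, showed the widest differences of the 10 genes between libraries and the primary tumour. It was at 4.59, 3.60, 34.8 and 5.08 CPM in bone marrow, at 10.2, 12.3, 5.13 and 12.4 CPM in lung libraries and at 0.921 CPM, or 12 estimated counts, in the primary library. Bone marrow replicate 3, with 501 counts, stood far above every other library, and the other 3 bone marrow libraries were below all 4 lung libraries. In that library IGFBP4 made up 55.7% of the level of the 3 binding proteins per kilobase, against 1.52% to 19.1% in the other 8.

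For bone marrow over lung the log2 fold change of IGFBP4 was 0.26 ± 0.82 (95% interval -1.59 to 2.12, edgeR adjusted p = 0.943), and it became -1.18 without bone marrow replicate 3 (edgeR adjusted p = 0.645), so its direction rests on that library. For metastases over primary it was 3.56 ± 1.66 (95% interval -0.19 to 7.32), with an unadjusted p of 0.0605 and an edgeR adjusted p of 0.99985. All 8 metastasis libraries were above the primary library, as for 7.56% of all genes. The fitted log2 fold change was 3.69 ± 1.70 for bone marrow and 3.43 ± 1.67 for lung against the primary library (edgeR adjusted p 1 and 0.835), and 2.84 for metastases without bone marrow replicate 3. DESeq2 gave no p-value for IGFBP4.

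IGFBP3 (chromosome 7, 45912245 to 45921874), the main carrier of IGF1 in plasma, was barely detected. It had 7, 2, 6 and 8 counts in bone marrow, 8, 4, 10 and 7 counts in lung and 4 counts in the primary library, or 0.122 to 0.521 CPM, 0.282 to 0.828 CPM and 0.307 CPM. At so few counts the groups overlapped and no difference was detectable at this depth. The log2 fold change for bone marrow over lung was -0.53 ± 0.81 (95% interval -2.37 to 1.31, edgeR adjusted p = 0.864), and for metastases over primary 0.62 ± 1.29 (adjusted p = 0.99985).

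Across the 10 genes, 7 were lower and 3 higher in bone marrow than in lung, where 49.9% of all genes were lower and 49.9% higher, and the median log2 fold change was -0.52, against 0.00 over all genes. In metastases against the primary library 6 were higher and 4 lower, where 57.5% of all genes were higher and 42.5% lower, with a median of 0.12 against 0.17 over all genes. The values for the primary library include that general shift. The median size of a log2 fold change, whatever its sign, was 0.52 for the 10 genes and 0.63 for all genes between the sites, and 0.61 and 0.71 against the primary library.

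**Figure D3:**
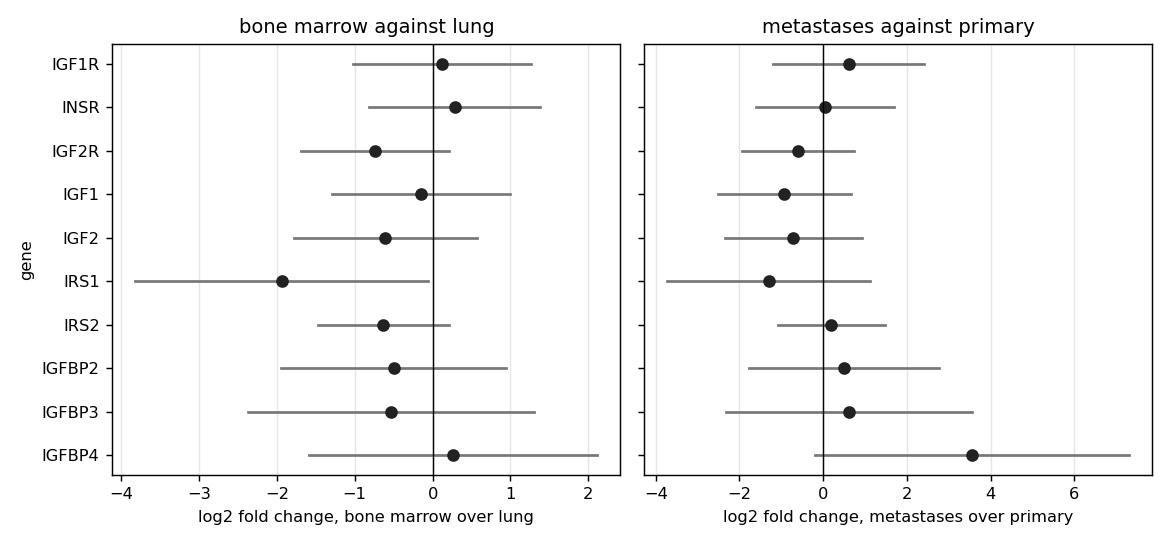
Log2 fold changes (points) with 95% intervals (lines) from edgeR for bone marrow over lung (left) and metastases over primary (right), 1 row per gene. All intervals but that of IRS1 in bone marrow against lung (-3.82 to -0.06) include 0, and 0 genes passed after adjustment over all 17042 genes.

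Genes around these 10 were taken from 8 lists of the pathway, in which 83 of 92 genes were tested. In bone marrow against lung, edgeR called 0 of the 83, as did DESeq2 and limma voom, with 44 higher and 39 lower and a median log2 fold change of 0.03. At an unadjusted p below 0.05 there were 4 higher and 2 lower, or 7.23%, where 10.2% of all genes were. Against the primary library 0 of 83 were called by any of the 3 tools, 47 were higher and 36 lower in metastases (median 0.11), and 1 had an unadjusted p below 0.05, or 1.20% against 4.79% of all genes. Apart from IGFBP1, IGFBP5 and IGFBP7, the genes named list by list below had the smallest p of their list in 1 direction. None of the genes tested passed.

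Other binding proteins were scarce, and 3 of 6 passed the filter on low counts. IGFBP5 averaged 1.28 ± 0.899 CPM in bone marrow libraries and 1.46 ± 0.99 CPM in lung libraries, with 0.767 CPM in the primary library. IGFBP6 was at 1.04, 1.22, 0.556 and 0.261 CPM in bone marrow, whereas in lung it was found in replicate 2 alone, at 2.04 CPM, and it was at 0 in the primary library (unadjusted p = 0.736 between sites and 0.181 against the primary library). IGFBPL1 had at most 1.06 CPM (unadjusted p = 0.269 between sites). IGFBP1 and IGFBP7 were below the filter.

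Among proteases of binding proteins and their inhibitors, 4 were higher and 4 lower in bone marrow than in lung, and 1 higher and 7 lower in the metastases than in the primary library. The stanniocalcin STC2, an inhibitor of pappalysins, was at 4.52, 0.610, 0.556 and 2.48 CPM in bone marrow libraries, against 0.424, 0.352, 0.331 and 0.291 CPM in lung, with no overlap (unadjusted p = 0.0167, edgeR adjusted p = 0.440), and 2.15 CPM in the primary library. All 4 lung values of STC2 rest on 4 to 5.001 estimated counts. The matrix protease MMP2 averaged 0.0903 ± 0.141 CPM in bone marrow libraries and 2.14 ± 2.83 CPM in lung libraries (unadjusted p = 0.0426, adjusted p = 0.486). PAPPA, the protease of IGFBP4, was at 6.74, 0.366, 0.556 and 6.45 CPM in bone marrow libraries, 19.3, 17.7, 0.911 and 14.3 CPM in lung libraries and 39.5 CPM in the primary library. The primary library was above all 8 for PAPPA and below all 8 for IGFBP4 (PAPPA log2 fold change -2.54 ± 1.34 for metastases over primary, unadjusted p = 0.0902, adjusted p = 0.99985). ADAM12, with the smallest p among those higher in metastases, was at 4.09 ± 0.289 CPM in bone marrow libraries, 4.08 ± 0.956 CPM in lung libraries and 3.07 CPM in the primary library (unadjusted p = 0.607).

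Genes of ligand and receptor maturation split 4 higher and 6 lower between the sites, and 6 higher and 4 lower against the primary library. The convertase PCSK5 averaged 2.63 ± 0.498 CPM in bone marrow libraries, 4.80 ± 2.61 CPM in lung libraries and was at 10.7 CPM in the primary library, above all 8 (unadjusted p = 0.166 between sites and 0.0623 against the primary library). The sorting adaptor GGA1 averaged 2.14 ± 1.74 CPM in bone marrow libraries and 0.655 ± 0.363 CPM in lung libraries (unadjusted p = 0.103). NAGPA, which completes the mannose 6-phosphate tag read by IGF2R, had 0 to 8.85 CPM in the metastases and was at 0 in the primary library (unadjusted p = 0.153). Of the IGF2 mRNA-binding proteins, IGF2BP2 averaged 40.9 ± 7.43 CPM in bone marrow libraries and 29.2 ± 8.20 CPM in lung libraries (unadjusted p = 0.186) and was at 55.0 CPM in the primary library, above all 8 (unadjusted p = 0.196). IGF2BP1 was at 43.4 ± 11.96, 50.05 ± 13.9 and 43.1 CPM in bone marrow, lung and primary libraries (unadjusted p = 0.581 between sites).

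Among adaptors and negative regulators, 6 were higher and 8 lower in bone marrow than in lung, and 9 higher and 5 lower in the metastases than in the primary library. GRB14, an adaptor that inhibits the insulin receptor, was at 1.16 ± 1.41 CPM in bone marrow libraries and 0.060 ± 0.0803 CPM in lung libraries (unadjusted p = 0.0479, adjusted p = 0.486). The phosphatase PTPN1 was at 11.1 ± 9.73 CPM in bone marrow libraries and 26.6 ± 19.05 CPM in lung libraries (unadjusted p = 0.125). The adaptor SH2B1 was at 9.85 ± 4.75 and 14.9 ± 6.85 CPM in bone marrow and lung and at 2.92 CPM in the primary library, below all 8, and the phosphatase PTPN11 at 47.2 ± 24.2, 49.1 ± 16.8 and 119.8 CPM, with the primary library above all 8 (unadjusted p = 0.0885 and 0.0699 against the primary library).

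Of 21 tested PI3K-AKT-mTOR genes, 14 were higher in bone marrow than in lung, and 9 higher and 12 lower in the metastases than in the primary library. PIK3CB, the beta catalytic subunit of PI3K, was at 0.666, 14.03, 10.01 and 2.80 CPM in bone marrow libraries, 0.339, 0.774, 1.57 and 1.23 CPM in lung libraries and 24.9 CPM in the primary library. It had the smallest p of the list in both comparisons (unadjusted p = 0.0180 and 0.0128, edgeR adjusted p = 0.441 and 0.832), with overlap between the sites through bone marrow replicate 1. The translation repressor EIF4EBP2 was at 70.7 ± 29.2 CPM in bone marrow libraries and 100.5 ± 48.2 CPM in lung libraries (unadjusted p = 0.328), and the regulatory subunit PIK3R1 at 12.2 ± 7.89, 13.6 ± 8.75 and 1.46 CPM in bone marrow, lung and primary libraries (unadjusted p = 0.100163 against the primary library).

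In the RAS-MAPK list, 9 of 12 genes were higher in bone marrow than in lung, and 9 of 12 were higher in the metastases than in the primary library. The exchange factor SOS1 averaged 24.8 ± 18.1 CPM in bone marrow libraries and 7.12 ± 5.51 CPM in lung libraries (unadjusted p = 0.0510). SOS2 was at 0.976 to 16.6 CPM in metastases and 1.23 CPM in the primary library, and BRAF at 2.88 to 19.7 CPM in metastases and 13.9 CPM in the primary library (unadjusted p = 0.179 and 0.491).

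The FOXO list holds transcription factors that AKT keeps out of the nucleus, and their targets, of which 3 of 11 were higher in bone marrow than in lung and 7 of 11 higher in the metastases than in the primary library. FOXO4 had 0 to 4.58 CPM in bone marrow libraries, against 0 to 0.339 CPM in lung (unadjusted p = 0.0680). CITED2 averaged 66.1 ± 31.6 CPM in bone marrow libraries and 118.9 ± 71.9 CPM in lung libraries, with 128.7 CPM in the primary library (unadjusted p = 0.113 between sites and 0.453 against the primary library), and SESN3 was at 6.58 ± 4.50, 12.4 ± 9.95 and 0.690 CPM (unadjusted p = 0.117 against the primary library).

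**Figure D4:**
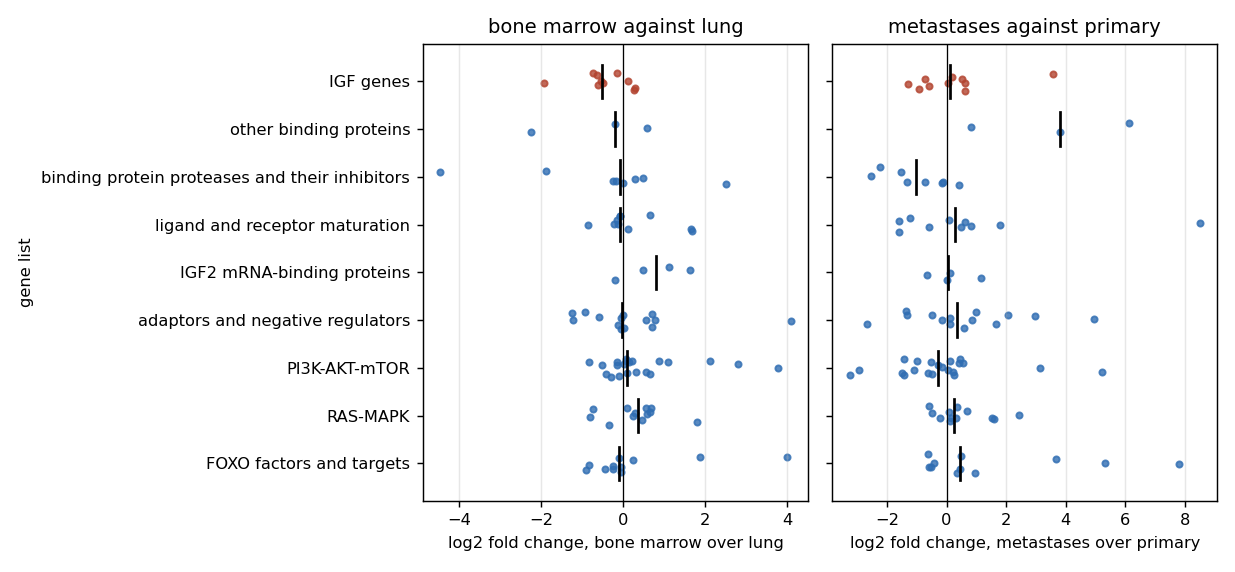
Log2 fold changes of single genes for bone marrow over lung (left) and metastases over primary (right), 1 row per gene list, with the 10 IGF genes at the top in red, other lists in blue and a black line at each median. Points spread to both sides of 0 in most rows, and 0 genes of any row passed the edgeR test after adjustment. Points far to the right of 0 in the right panel, such as NAGPA, include genes with no counts in the primary library, for which a fitted fold change has no bound.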

How the data were processed

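The deposited table holds estimated counts for each gene symbol, not whole and not normalized. Per the submitters' processing notes, Trim Galore, Salmon and hg38 were used, without versions given. A second table deposited by the authors gives, for every library, read length (151 bases), the percent of reads by species and the fraction by counting category. Per the labels' protocols, a template-switching kit for little RNA made the libraries, so a count near 0 can come from molecules lost before sequencing. Of 34934 rows, 12 vector and 92 spike-in rows were left out (at most 0.0159% of a library). Counts were rounded, filtered with edgeR's filterByExpr, which left 17042 genes, then scaled by TMM. A single quasi-likelihood model (edgeR 4.0.16) covered 9 libraries in 3 groups. Standard errors are the log2 fold change over the square root of F. DESeq2 1.42.0, limma 3.58.1 voom, other scalings and filters, and leaving out each metastasis library were alternatives. The model was first run on simulated counts with planted changes. How many of these it recovered is not given here, so that run is no measure of what these libraries could detect.

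The 10 genes, the pathway lists and the marker lists were chosen with earlier results of these data known. Named genes were the 10, genes overlapping them, and the smallest p in each direction of each pathway list. For IGF1R the 3 most similar genes were added. IGFBP1, IGFBP5, IGFBP7, IGF2BP3, INS, CD68, PTPRC, LYZ and FLI1 were named after their values were seen, and so were the motifs. One gene that the rule names is not reported here. RACK1 was matched through an older symbol. Promoter windows come from RefSeq (GRCh38.p14) and matched 9 of the 10 genes, all but IGF2.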

Additional observations from a re-analysis of the deposited data

Results flagged for a closer look

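Of 38 groups of 4 libraries, 2 held a library far from the other 3, where chance gives about 1 in 20. IGFBP4 was at 34.8 CPM in bone marrow replicate 3, and the next highest bone marrow library was at 5.08 CPM. The share of reads assigned to mouse was 8.09% in lung replicate 3, and the next highest lung library was at 7.18%. Lung replicate 3 was also the lung library with the highest IGF1 (93.1 CPM) and the lowest IRS1 (0.994 CPM), and the part of mouse reads in these levels was not tested.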

How the results depend on the processing

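Over 17 alternatives for bone marrow against lung and 16 for metastases against primary, 0 of the IGF genes tested were called. Some alternatives tested 8 or 9 of the 10. Of 165 and 156 log2 fold changes recomputed for these genes, 155 and 151 kept their sign, and the lowest adjusted p was 0.186 and 0.804. All genes called between the sites numbered 1 with edgeR, 3 with at least 5 CPM in at least 4 libraries, 468 with DESeq2 (299 higher, 169 lower), 6 with limma voom (5 higher, 1 lower), 0 with the replicate number as a block, 0 to 0 with single libraries left out, and 0 without bone marrow replicate 1 and lung replicate 3, an alternative chosen after seeing the data. Against the primary library they numbered 0 with edgeR, 97 with DESeq2 (78 higher, 19 lower) and 48 with limma voom (0 higher, 48 lower). Between the sites the sign turned for IGF1R with limma voom (-0.011) and the replicate block (-0.015), and for IGFBP4 with limma voom (-0.36) and the replicate block (-0.58). Against the primary library it turned for INSR with library size alone (-0.041) and limma voom (-0.026), and for IGFBP2 with the replicate block (-0.78). With single libraries left out, the log2 fold change between the sites ran from -0.19 to 0.39 for IGF1R, -0.40 to 0.22 for IGF1 and -1.18 to 0.57 for IGFBP4, and that of INSR against the primary library from -0.26 to 0.15, and to 0.24 without both named libraries. Over all genes, the median log2 fold change against the primary library was 0.17 with TMM, 0.08 with library size alone and -0.10 with limma voom. The cause of these turns was not tested. With the longest coding transcript in place of the median length, chosen after seeing the data, the mean log2 difference per kilobase was 3.70 in bone marrow and 3.22 in lung for IGF1 minus IGF2 (6.13 and 5.65 with the median length), and -1.57 and -2.36 for IGF1 minus IGFBP2 (1.40 and 0.61), since the lengths of IGF1 transcripts differ most. Same-numbered bone marrow and lung libraries correlated at -0.036 to 0.026 in their deviations. Such correlations cannot show whether same-numbered libraries shared a mouse, so a pairing by number stays unknown. IGFBP3 and IGF2 fell below the stricter filter and have no value there. IGFBP3 also had no value in other alternatives, among them the 8 metastasis libraries alone and the fit without both named libraries. At 2 to 10 counts per library, IGFBP3 is limited by depth.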

Other observations

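Further RNA-binding genes, LIN28B and IGF2BP3, varied widely between libraries of a site. LIN28B, which blocks maturation of the let-7 microRNAs, ran from 0.196 to 48.2 CPM in bone marrow and from 0.0704 to 26.7 CPM in lung, with 5.37 CPM in the primary library. IGF2BP3 ran from 58.8 to 113.6 CPM in bone marrow and from 2.32 to 74.9 CPM in lung, with 56.5 CPM in the primary library. Neither passed the edgeR test in either comparison.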
